A study of Mus musculus with 9 samples.

Results

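The potassium channel genes of the mouse heart were examined here as the set of genes whose symbol starts with Kcn, the root that names potassium channel subunits. Of the 13890 genes in the deposited count table, 52 carried such a symbol, of which 51 encode a pore-forming or auxiliary subunit and 1, Kcnq1ot1, is a noncoding RNA. A filter on low counts kept 46 of the 52 for testing, among 13364 genes in all. The 6 removed were Kcnd1, Kcne3, Kcnj10, Kcnk1, Kcnma1 and Kcnn4. Kcne2 was not analysed here.

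The study used male NSG mice, a strongly immunodeficient strain that accepts human cells, which were 8 weeks old when the experiment began. Sham mice (S, animals 2, 3 and 5) received saline in the spleen. The mice labelled T (animals 11, 12 and 15) were described as having received HCT116 cells, an established human colorectal cancer line that spreads from the spleen to the liver, and those labelled A + T (animals 20, 21 and 22) as having received the same cells and weekly ACVR2B/Fc, a soluble activin receptor fused to an antibody Fc fragment that captures activins and myostatin. Hearts were collected about 3 weeks after the intervention, and polyadenylated RNA of the whole heart was sequenced, so all 9 libraries share strain, sex and age and hold atrial as well as ventricular RNA. The labels were checked against the log2 ratios in the study's list of changed heart genes, over the 378 listed genes tested here. The log2 ratios of T over S lay a median of 0.656 from those listed for tumour hosts, with the same sign for 283 genes, and a median of 0.0046 from those listed for mice that received ACVR2B/Fc without a tumour, with the same sign for 376. Those of A + T over S lay a median of 0.0022 from the sum of 2 listed ratios, tumour hosts over sham and treated over untreated tumour hosts. The label of the T libraries thus disagrees with the group names in the study's list, and which of them is wrong cannot be told from these values. The group keeps the name of its label, and what is said of T holds for the hearts so labelled and not for tumour hosts as such.

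Potassium channels let potassium leave the cell and so end each cardiac action potential and hold the membrane at rest. In the mouse ventricle, a fast transient outward current and several slower delayed rectifiers repolarize the cell, and inward rectifiers set the resting potential. Channels gated by ATP shorten the action potential when energy runs low. Those gated by acetylcholine do so in atrial and pacemaker cells when the vagus nerve is active. Each channel is built from pore-forming subunits, and auxiliary subunits change how many channels reach the membrane and how they gate.

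The libraries held between 12392222 and 19732471 counts, of which Rn45s, a ribosomal RNA gene, took between 4.57% and 19.6%. Levels are given as CPM, counts scaled to the size of the library with TMM factors, and the Kcn genes together held between 1503 CPM in A + T 22 and 1938 CPM in S 2. All 9 ventricular muscle markers checked, among them Myh6 and Myl2, were present in every library, with sums between 49618 and 71523 CPM. The lowest sums were those of A + T 22 and T 12 (54017 CPM). By the test described below, 2 of the 9 were higher and 2 lower in T than in S, against 10.3% and 11% of all genes. Lung and airway markers summed to at most 4.41 CPM in 7 libraries, to 195 CPM in T 12 and to 1624 CPM in A + T 22, and results that rest on these libraries are given without them as well. In whole-heart RNA, fewer cells of a type and less RNA per cell cannot be told apart.

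Levels of different genes were compared per length, as CPM per kb from the deposited log2 values. Kcnk3, a two-pore-domain channel that carries background current, had the highest mean level over the 9 libraries at 109 CPM per kb, with libraries between 88.6 and 119. It was followed by Kcnip2, the auxiliary subunit of the transient outward channel, at 79.2, by Kcnj11, the pore of the cardiomyocyte ATP-sensitive channel, at 61.7, and by Kcng2, an electrically silent voltage-gated subunit, at 38.3 CPM per kb. In the S libraries each of these 4 genes lay above the next without overlap.

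The next places in the order of per-kb levels were held by Kcnj5 at 27.8, Kcnj3 at 24.8, Kcnq1 at 19.6, Kcnj2 at 19.2, Kcnh2 at 16.8 and Kcnj12 at 10.4 CPM per kb. Among the S libraries, Kcnj5 overlapped with Kcnj3, and Kcnq1, Kcnj2 and Kcnh2 overlapped with their neighbours, so their order is not resolved. These 10 genes held between 86.1% and 88.3% of the summed per-kb level of the 51 subunit genes in each library. A further 15 genes brought the number above 1 CPM per kb to 25, and 26 lay at or below it.

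**Figure D1:**
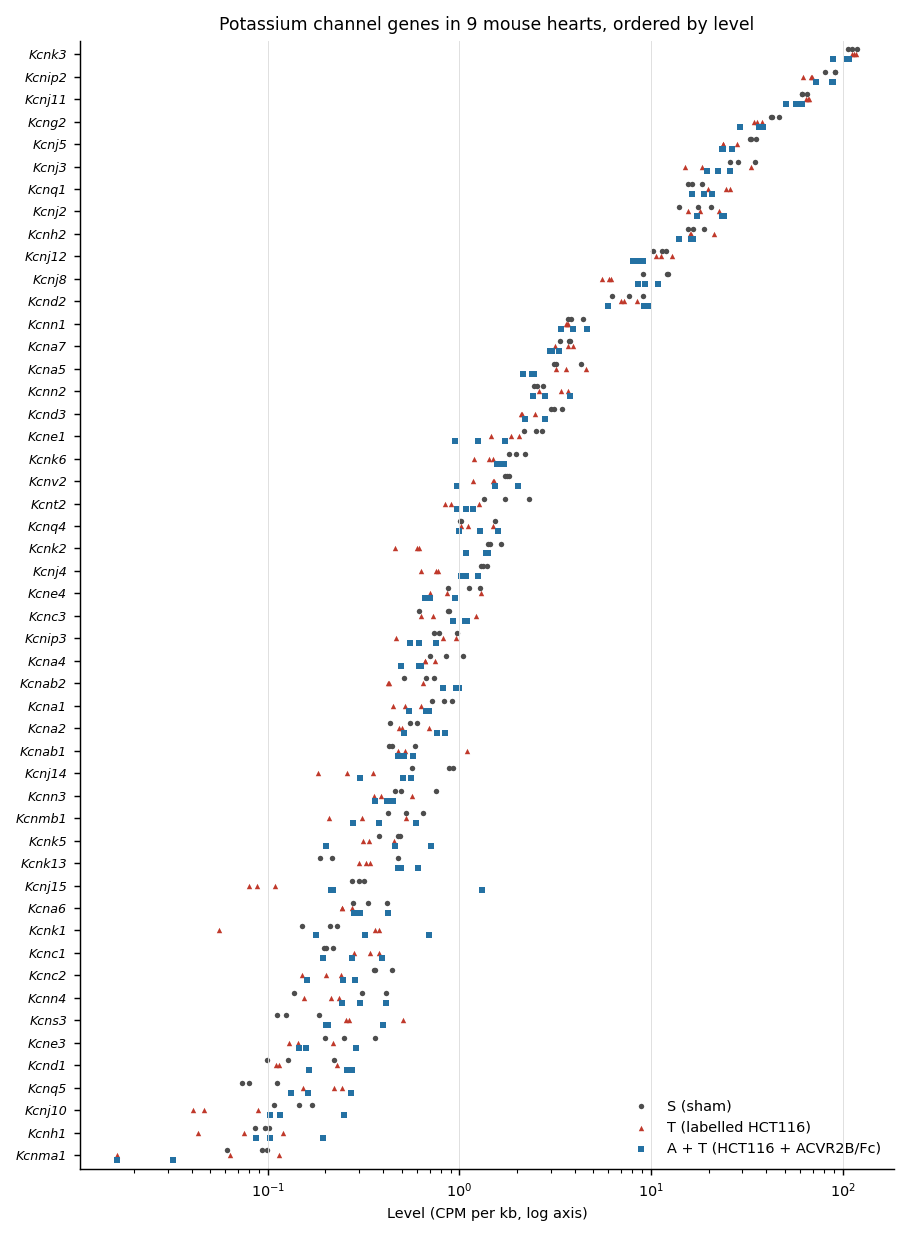
Levels of potassium channel subunit genes in each of the 9 libraries, in CPM per kb on a log axis, ordered from the highest mean to the lowest. Circles are S, triangles T and squares A + T. The order runs from Kcnk3 at 109 CPM per kb to Kcnma1, and the single square far to the right of its group in the row of Kcnj15 is A + T 22. A gene with 0 counts has a small positive value on the deposited scale.

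The sequences shown are the 250 bases upstream of the annotated start of 3 genes on which the comparisons turn, because Kcnk2 and Kcnj8 differed in T from both other groups and Kcnip2 had the highest per-kb level among the subunits that differed between T and S. They were taken from RefSeq on GRCm38.p6, are written 5′ to 3′ along the transcript, and lie on the minus strand at chr1:189402274-189402523 for Kcnk2, at chr6:142571615-142571864 for Kcnj8 and at chr19:45816064-45816313 for Kcnip2. RefSeq lists 4 starts for Kcnk2, of which the most upstream is shown. Capitals mark matches on either strand to any of 5 motifs. An E-box reads CACGTG and is bound by basic helix-loop-helix factors. A GC box reads GGGCGG and is bound by SP factors. A CCAAT box is spelled by its name and is bound by nuclear factor Y. A GATA element was searched as AGATAA, and a SMAD box, bound by the factors downstream of activin receptors, as CAGACA. None of these motifs overlaps another in the windows shown.
Kcnk2: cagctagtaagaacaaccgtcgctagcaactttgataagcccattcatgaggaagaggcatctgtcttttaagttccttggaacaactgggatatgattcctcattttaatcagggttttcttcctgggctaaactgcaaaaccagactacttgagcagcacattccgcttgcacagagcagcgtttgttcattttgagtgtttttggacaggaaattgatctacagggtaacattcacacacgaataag
Kcnj8: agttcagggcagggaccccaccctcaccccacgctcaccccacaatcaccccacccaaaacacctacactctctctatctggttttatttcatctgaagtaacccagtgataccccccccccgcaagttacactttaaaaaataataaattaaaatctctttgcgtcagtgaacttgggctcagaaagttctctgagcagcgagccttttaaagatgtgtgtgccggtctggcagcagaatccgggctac
Kcnip2: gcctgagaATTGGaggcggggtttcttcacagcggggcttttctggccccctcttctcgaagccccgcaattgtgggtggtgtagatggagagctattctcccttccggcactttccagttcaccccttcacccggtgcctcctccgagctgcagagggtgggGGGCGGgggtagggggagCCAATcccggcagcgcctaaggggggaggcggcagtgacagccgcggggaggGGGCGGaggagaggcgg

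The Kcnk2 and Kcnj8 windows held none of the 5 motifs and had a GC content of 42.4% and 49.2%. The Kcnip2 window held 2 GC boxes and 2 CCAAT boxes, 1 on each strand, and had a GC content of 66.8%. Across all 32851 promoter windows in the table, 32.7% held a GC box, 33.8% a CCAAT box, 17.1% a SMAD box, 9.99% a GATA element and 6.02% an E-box. Of the 52 Kcn genes, 38 had an entry, with 54 windows in all. A GC box was found in 40.7% of these, a CCAAT box in 33.3%, a SMAD box in 22.2%, a GATA element in 1.85% and an E-box in 9.26%. Such matches are letters in a window, and binding was not measured.

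The first question was how the libraries labelled T differed from S. Of the 25 tested genes of the cardiac currents, 6 were lower in T, namely Kcnk2 at 2.75-fold, Kcnj4 at 1.94-fold, Kcnj8 at 1.91-fold, Kcnd3 at 1.44-fold, Kcnj5 at 1.34-fold and Kcnip2 at 1.32-fold, whereas Kcnq1, the pore of the slow delayed rectifier, was 1.40-fold higher. Fold changes are given as log2 ratios with their standard error (SE) from the fit of all 9 libraries. By edgeR's quasi-likelihood test with a Benjamini-Hochberg adjusted P-value under 0.05, 11 of the 46 Kcn genes were lower in T and 2 were higher. Over all 13364 genes 11% were lower and 10.3% higher. The median log2 ratio was −0.27 over the Kcn genes and −0.00 over all genes, and that of the Kcn genes lay between −0.31 and −0.17 under every alternative tried. Without S 2 or without S 3 the number of lower Kcn genes was 7, against 884 and 985 of all genes. The number of higher Kcn genes ranged from 0 to 4 as single libraries were left out, against 872 to 1924 of all genes.

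By family, 4 of 9 inward rectifiers, 2 of 5 two-pore-domain channels, 3 of 20 voltage-gated channels, 1 of 4 calcium- or sodium-activated channels and 1 of 7 auxiliary subunits were lower in T than in S, and both higher genes were voltage-gated. The share over all genes that were lower, 11%, is the background for each of these counts and for the 6 lower genes of the cardiac currents, and 10.3% is that for the higher genes.

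The second comparison set A + T against T. Kcnk2 and Kcnj8 were higher in A + T, by 2.36-fold and 1.63-fold, and Kcna5 and Kcnj12 were lower, by 1.65-fold and 1.36-fold. The low-abundance Kcnj15 was also higher, with 1 library far above the other libraries. Thus 3 of 46 Kcn genes were higher and 2 lower, against 3.09% and 2.79% of all genes. The median log2 ratio of the Kcn genes was 0.10, against 0.01 over all genes, and it was −0.07 without A + T 21. Without T 11, 1 Kcn gene was higher, against 54 of all genes. Without T 11, T 12 or A + T 21 no Kcn gene was lower by edgeR's test, where 76, 215 and 203 of all genes were. With all libraries, 4 Kcn genes were lower at an unadjusted P-value under 0.05, against 10.6% of all genes. This comparison and the previous one share the 3 libraries labelled T, once as numerator and once as denominator, and so are not independent.

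When A + T was compared with S directly, Kcnj5, Kcnj12 and Kcne1 were lower, by 1.38-fold, 1.31-fold and 1.90-fold. These were 3 of 46 Kcn genes, against 3.64% of all genes. None was higher by edgeR's test, by DESeq2 or by limma-voom, against 4.67% of all genes by edgeR, and 3 (Kcnab2, Kcnk13 and Kcnq5) were higher at an unadjusted P-value under 0.05, against 13.6%. The median log2 ratio was −0.19 over the Kcn genes and 0.00 over all genes. Without S 2 or without S 3 no Kcn gene was lower by edgeR's test, where 95 and 136 of all genes were. DESeq2 called 6 lower, against 696 of all genes.

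At the thresholds the study used, an unadjusted P-value under 0.05 and a change of at least 1.5-fold, 3 of the 46 Kcn genes were higher and 8 lower in T than in S, against 5.2% and 9.01% of all genes. In A + T against T, 5 were higher and 1 was lower, against 6.5% and 1.61%, and in A + T against S, 2 were higher and 6 lower, against 5.82% and 3.09%. Libraries of the groups did not overlap for 4 higher and 16 lower Kcn genes in T against S, where 21.2% and 21.5% of all genes did so, for 9 and 5 in A + T against T, where the shares were 12.3% and 13.1%, and for 4 and 16 in A + T against S, where they were 16% and 16.5%.

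**Figure D2:**
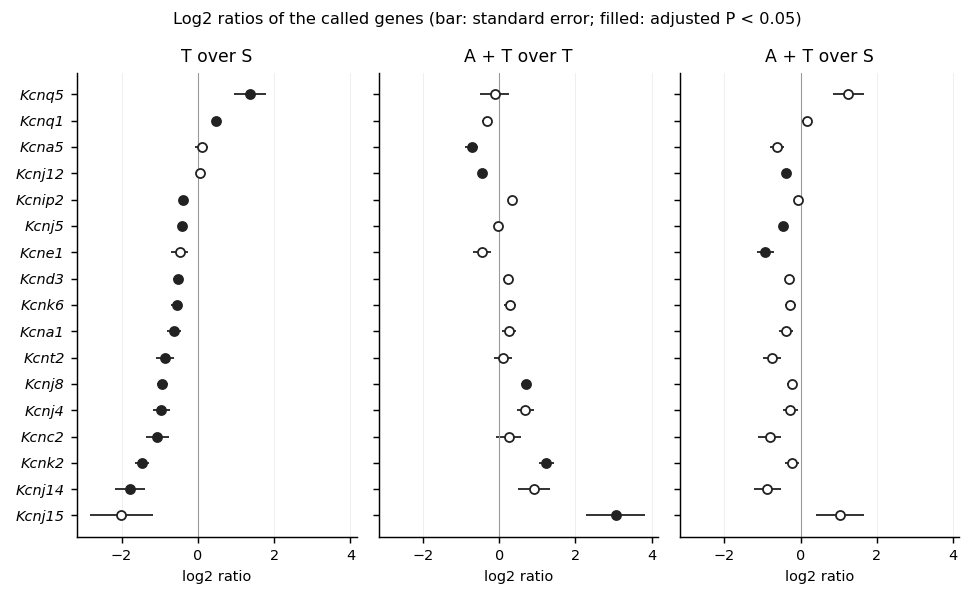
Log2 ratios of the 17 Kcn genes with an adjusted P-value under 0.05 in at least 1 comparison, for T over S, A + T over T and A + T over S. Points are the fitted values, bars the standard error, and filled points passed the test. Kcnk2 and Kcnj8 have filled points on opposite sides of 0 in the first and second panels, and Kcnj15 has the widest bars.

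The transient outward current is carried by the pore subunits Kcnd2, Kcnd3 and Kcna4 with the auxiliary subunit Kcnip2, which is required for its full size. Kcnip2 was at 229, 228 and 202 CPM in S, at 174, 156 and 171 CPM in T, and at 221, 223 and 181 CPM in A + T. All T libraries lay below all S libraries, and A + T lay above T without overlap. The log2 ratio for T over S was −0.40 (SE 0.10, adjusted P = 0.0173), and it no longer passed without S 2, S 3 or T 12 (adjusted P at most 0.0701). The ratio of A + T over T was 0.32 (SE 0.10), which did not pass with all libraries (adjusted P = 0.0856). It did pass without A + T 22 (log2 ratio 0.41, adjusted P = 0.0182) and by DESeq2 (adjusted P = 0.0426). Without T 12 and A + T 22 together it also passed (log2 ratio 0.36, adjusted P = 0.0321).

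Kcnd3 was at 24.8, 21.7 and 22.5 CPM in S, at 15.2, 15.2 and 17.8 CPM in T, and at 20.1, 20.2 and 15.8 CPM in A + T. Every T library was below every S library, and A + T 22 lay within the range of T. The log2 ratio for T over S was −0.53 (SE 0.12, adjusted P = 0.0111), and the gene passed with each of the 9 libraries left out in turn. Kcnd2, the main pore subunit of this current in the mouse ventricle, had means of 35.1 ± 6.50 CPM in S, 34.2 ± 3.57 CPM in T and 37.7 ± 9.28 CPM in A + T (SD, n = 3) and passed in no comparison. Its range in S, from 28.6 to 41.6 CPM, covered every T library. Kcna4, the pore of the slow transient component, had means of 4.10 ± 0.840, 3.23 ± 0.239 and 2.71 ± 0.365 CPM and passed in none either (adjusted P = 0.1003 for A + T over S).

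The slower delayed rectifiers and steady-state currents involve Kcna5 and the background channels Kcnk3 and Kcnk2. Kcnk2, which encodes a channel opened by stretch and lipids, was at 6.74, 5.83 and 5.71 CPM in S, at 2.42, 2.38 and 1.78 CPM in T, and at 5.56, 4.38 and 5.73 CPM in A + T. The T libraries lay below every other library, and S and A + T overlapped. These levels rest on between 19 and 122 counts. The log2 ratio was −1.46 (SE 0.19, adjusted P = 0.00076) for T over S and 1.24 (SE 0.19, adjusted P = 0.00754) for A + T over T, and both passed with each of the 9 libraries left out and under each of 10 other settings. For A + T over S it was −0.22 (SE 0.17, adjusted P = 0.451). Without T 12 and A + T 22 together, the values were −1.503 and 1.22.

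Kcna5, the pore of a slowly inactivating current that is also prominent in atria, was at 12.9, 9.28 and 9.54 CPM in S, at 10.8, 13.7 and 9.54 CPM in T, and at 6.37, 7.32 and 7.08 CPM in A + T. All A + T libraries were below all others, and S and T overlapped. For A + T over T the log2 ratio was −0.72 (SE 0.18, adjusted P = 0.0422). It passed in only 2 of the 9 fits with 1 library left out, those without S 2 or T 15, and reached an adjusted P-value of 0.120 with a log2 ratio of −0.56 without T 12, the library with the highest atrial marker sum. For A + T over S it was −0.61 (adjusted P = 0.0571).

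Kcng2, the silent subunit, was at 133, 120.2 and 121 CPM in S, at 101, 97.2 and 107 CPM in T, and at 108, 104 and 82.8 CPM in A + T. Both other groups lay below S without overlap, but the adjusted P-values of 0.0671 for T and 0.0672 for A + T did not pass. The ratio of T over S did pass without A + T 22 (−0.29, adjusted P = 0.0126). It also passed without T 12 and A + T 22 together (−0.25, adjusted P = 0.0330), with upper-quartile factors (0.0454) and in the fit of 2 groups (0.0213). That of A + T over S passed by DESeq2 (adjusted P = 0.0319). Kcnk3, the gene with the highest per-kb level, had means of 432 ± 25.7, 438 ± 9.85 and 385 ± 39.6 CPM and passed in none, with A + T 22 at 340.1 CPM the lowest library.

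**Figure D3:**
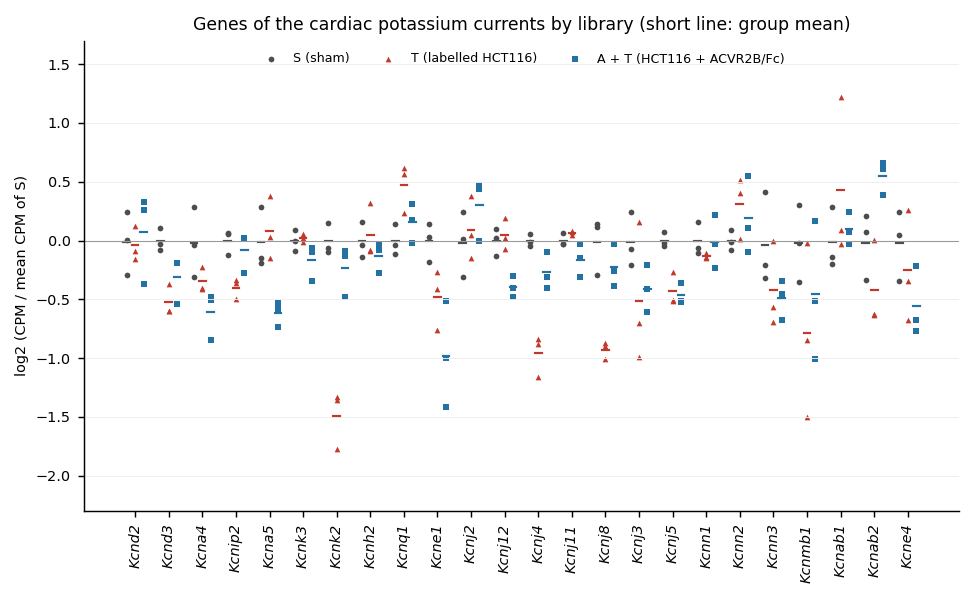
Genes of the cardiac potassium currents in each library, as log2 of the CPM over the mean CPM of S. Circles are S, triangles T and squares A + T, and short lines are the means of the log2 values in each group. The triangles of Kcnk2, Kcnj4 and Kcnj8 lie below both other groups, those of Kcnq1 lie above S, and the squares of Kcna5 and Kcnj12 lie below both other groups.

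The rapid and slow delayed rectifiers, which are small in adult mouse ventricle, are formed by Kcnh2 and by Kcnq1 with the auxiliary subunit Kcne1. Kcnq1 was at 49.6, 47.2 and 56.0 CPM in S, at 78.3, 75.3 and 59.9 CPM in T, and at 63.2, 57.5 and 50.1 CPM in A + T. All T libraries lay above all S libraries, and A + T overlapped with both. For T over S the log2 ratio was 0.49 (SE 0.12, adjusted P = 0.0179). It no longer passed without S 2, S 3, T 11 or T 12 (adjusted P at most 0.0730).

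Kcnq1ot1 lies on the opposite strand within Kcnq1 on chromosome 7, and the authors counted reads by strand. Its means were 15.3 ± 1.54, 18.7 ± 4.84 and 14.2 ± 2.32 CPM in S, T and A + T, and it passed in no comparison. Kcne1 was at 6.74, 7.81 and 8.46 CPM in S, at 5.76, 4.52 and 6.36 CPM in T, and at 3.83, 2.87 and 5.36 CPM in A + T. Both other groups were below S without overlap, and T and A + T overlapped. The log2 ratio for A + T over S was −0.92 (SE 0.23, adjusted P = 0.0338). That comparison no longer passed without any 1 of S 2, S 3, S 5, T 11, A + T 20 or A + T 21, with an adjusted P-value of at most 0.103. For T over S it was −0.47 (adjusted P = 0.154). Kcnh2 had means of 79.6 ± 8.38, 83.0 ± 14.0 and 72.8 ± 6.26 CPM and passed in none.

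The inward rectifier current, which holds the resting potential, is carried by the pore subunits Kcnj2, Kcnj12 and Kcnj4. Kcnj12 was at 58.6, 50.02 and 55.7 CPM in S, at 52.0, 55.6 and 62.7 CPM in T, and at 44.5, 41.3 and 39.4 CPM in A + T. The A + T libraries were below all others. The log2 ratio was −0.44 (SE 0.09, adjusted P = 0.0270) for A + T over T and −0.39 (SE 0.09, adjusted P = 0.0320) for A + T over S. The first did not pass without T 11, T 12, T 15 or A + T 21 (adjusted P at most 0.0653), and the second not without S 2, S 3, S 5, A + T 21 or A + T 22 (at most 0.125).

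Kcnj4 was at 2.87, 2.74 and 2.68 CPM in S, at 1.24, 1.54 and 1.496 CPM in T, and at 2.23, 2.58 and 2.09 CPM in A + T. The 3 groups did not overlap, with S above A + T and A + T above T. For T over S the log2 ratio was −0.95 (SE 0.21, adjusted P = 0.0100) and passed with each library left out in turn, while for A + T over T it was 0.69 (SE 0.21, adjusted P = 0.0887). Kcnj2, the most abundant of these 3 per kb, had means of 95.0 ± 17.9, 102 ± 19.2 and 119 ± 20.5 CPM and passed in none.

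Channels gated by ATP pair a pore, Kcnj11 or Kcnj8, with a sulfonylurea receptor, Abcc8 or Abcc9. Kcnj8, the pore of the form found in vascular smooth muscle and pericytes, was at 27.0, 26.4 and 19.95 CPM in S, at 13.4, 12.1 and 13.1 CPM in T, and at 18.7, 23.9 and 20.4 CPM in A + T. Every T library was below every S and every A + T library, and S and A + T overlapped. The log2 ratio was −0.93 (SE 0.14, adjusted P = 0.00132) for T over S, which passed with each library left out. For A + T over T it was 0.71 (SE 0.14, adjusted P = 0.0190), which did not pass without T 11, T 12 or A + T 21 (adjusted P at most 0.0722). Without T 12 and A + T 22 together the values were −0.88 and 0.68, and both passed (adjusted P = 0.00305 and 0.0453).

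Abcc9, the partner of Kcnj8, lies 16.2 kb away on the same strand of chromosome 6. Its means were 430.1 ± 31.9, 411 ± 75.3 and 391 ± 91.3 CPM, and it passed in no comparison. Abcc8, which lies 3.76 kb from Kcnj11 on chromosome 7, was lower in A + T than in S with a log2 ratio of −0.44 (adjusted P = 0.0144). Kcnj11 itself had means of 206 ± 7.52, 215 ± 2.96 and 184 ± 18.0 CPM and passed in none.

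Most pericyte and endothelial markers were lower in T than in S, as Kcnj8 and Kcnk2 were, whereas smooth muscle markers were mixed. The 6 pericyte markers (Rgs5, Pdgfrb, Notch3, Cspg4, Vtn and Higd1b) summed to between 283 and 366 CPM in S, between 156 and 224 CPM in T and between 188 and 303 CPM in A + T. Of these, 4 were lower in T than in S by the same test, and the median log2 ratio of the list was −0.95 for T over S and 0.48 for A + T over T. None of the 6 passed for A + T over T, and Cspg4 had a log2 ratio of −0.37 there. The 6 endothelial markers summed to between 809 and 939 CPM in S, 465 and 584 CPM in T and 605 and 729.5 CPM in A + T, with 5 of 6 lower in T than in S and 1 higher in A + T than in T. Over all genes 11% were lower in T than in S and 3.09% higher in A + T than in T. The 6 smooth muscle markers (Acta2, Myh11, Tagln, Cnn1, Des and Lmod1) summed to between 2134 and 2231 CPM in S, 2871 and 3360 CPM in T and 1921 and 2299 CPM in A + T. Most of that sum was Des, an intermediate filament gene that cardiac muscle also expresses, which was higher in T than in S and lower in A + T than in T. Acta2 and Myh11 were lower than in S both in T and in A + T, and the median log2 ratio of this list was −0.39 for T over S and −0.22 for A + T over T. No marker of the 3 lists was at 0. Their part in the values of Kcnj8 and Kcnk2 was not tested.

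**Figure D4:**
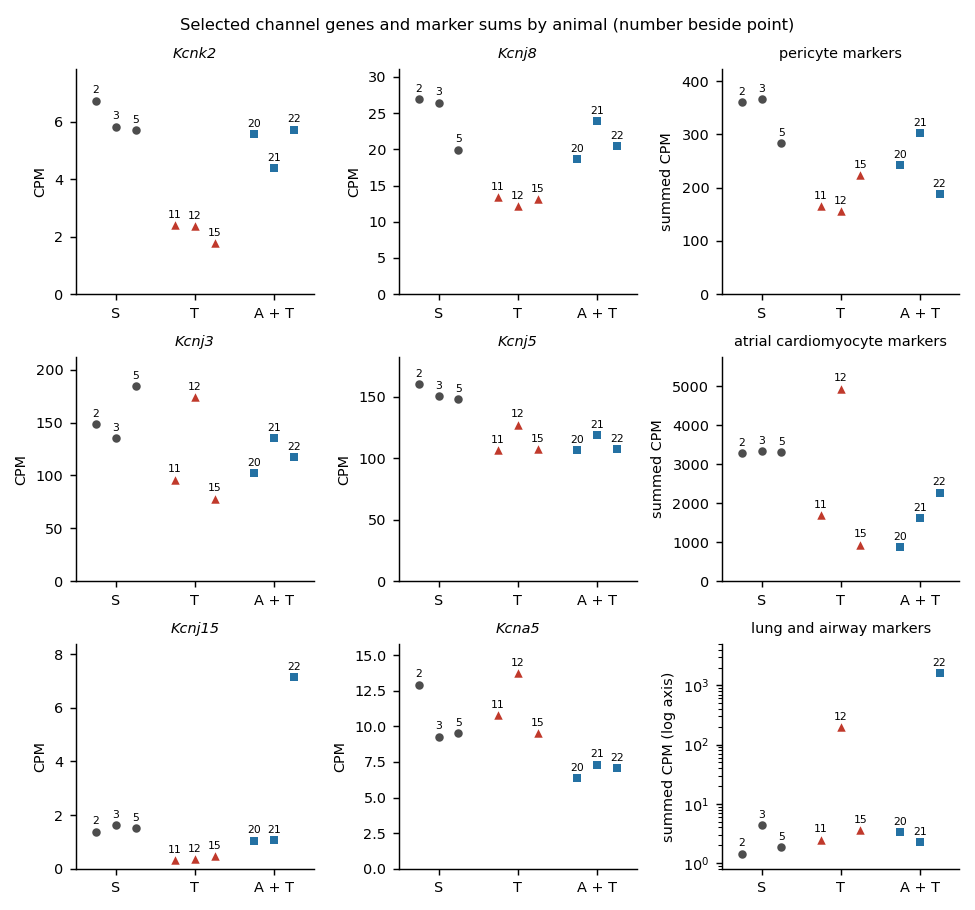
CPM of Kcnk2, Kcnj8, Kcnj3, Kcnj5, Kcnj15 and Kcna5 and summed CPM of pericyte, atrial and lung and airway markers in each animal, whose number stands beside the point. The y axes start at 0 except for the lung and airway sum, which is on a log axis. Animal 12 has the highest atrial sum and the highest Kcnj3 of its group, and animal 22 the highest lung and airway sum and the highest Kcnj15.

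The acetylcholine-gated channel of atrial and pacemaker cells is formed by Kcnj3 and Kcnj5. Kcnj5 was at 160.2, 150.2 and 148 CPM in S, at 107, 127 and 107 CPM in T, and at 106, 119 and 107 CPM in A + T. All S libraries lay above all others, and T and A + T overlapped. The log2 ratio was −0.42 (SE 0.09, adjusted P = 0.00806) for T over S, which passed with each library left out. For A + T over S it was −0.46 (SE 0.09, adjusted P = 0.0146), and it no longer passed without S 2 or S 3 (adjusted P at most 0.0687).

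Kcnj3 was at 148, 135 and 184 CPM in S, at 96.1, 174 and 78.3 CPM in T, and at 102, 135 and 117 CPM in A + T. T 12 lay within the range of S and the other two T libraries below it. For T over S the log2 ratio was −0.42 (SE 0.25, adjusted P = 0.259), and without T 12 it was −0.84 (adjusted P = 0.00959). The 8 atrial markers, which include Nppa, Myl7, Sln and Bmp10, summed to between 3289.6 and 3345 CPM in S, to 1699, 4939.5 and 942 CPM in T 11, T 12 and T 15, and to 870.3, 1623 and 2277 CPM in A + T 20, 21 and 22. Nppa alone held 3357 CPM in T 12. Bmp10 was instead lowest in T 12 within its group. It was at 66.1, 158 and 91.8 CPM in S, at 1.86, 1.13 and 1.78 CPM in T, and at 0.247, 0.359 and 51.5 CPM in A + T. Of the 8, only Bmp10 passed for T over S (log2 ratio −6.07, adjusted P = 0.0135). Within each of these groups except S, the library with the lowest Kcnj3 also had the lowest atrial sum. The highest values coincided in T 12, but in A + T Kcnj3 was highest in A + T 21 and the atrial sum in A + T 22. The part of atrial RNA in the values of Kcnj3 and Kcnj5 was not tested.

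The calcium-activated channels Kcnn1, Kcnn2 and Kcnn3, which couple calcium to repolarization chiefly in atria, and Kcnmb1, the smooth muscle auxiliary subunit, passed in no comparison. Their means in S were 16.0 ± 1.604, 5.19 ± 0.308, 4.23 ± 1.23 and 2.11 ± 0.473 CPM. The largest of their log2 ratios was −0.61 (SE 0.40, adjusted P = 0.301), that of Kcnmb1 for T over S. Kcnma1, the pore that Kcnmb1 joins, did not pass the filter and was at most 0.772 CPM in any library.

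Of the remaining auxiliary subunits, Kcnab1 and Kcne4 passed in no comparison. Kcnab2, which joins voltage-gated pores, was at 2.43, 1.83 and 2.68 CPM in S, at 1.49, 2.32 and 1.496 CPM in T, and at 3.65, 3.52 and 3.02 CPM in A + T. The A + T libraries lay above all others, and the log2 ratio for A + T over T of 0.92 (SE 0.25) did not pass (adjusted P = 0.0571). The ratio did pass without T 12 (1.18, adjusted P = 0.0456) and without T 12 and A + T 22 together (1.26, adjusted P = 0.0308). It also passed with at least 10 counts in every library (adjusted P = 0.0445) and by limma on the deposited log2 values (adjusted P = 0.0448). The 7 leukocyte and macrophage markers summed to between 529 and 778 CPM in A + T, against 288 to 381 CPM in the other libraries. Of the 7, 6 were higher in A + T than in T, against 3.09% of all genes. The part of these markers in the value of Kcnab2 was not tested.

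Outside the cardiac currents, 7 genes passed in at least 1 comparison, mostly on few counts. Kcnj14, an inward rectifier, was at 2.21, 2.33 and 1.37 CPM in S, at 0.805, 0.357 and 0.561 CPM in T, and at 1.36, 1.22 and 0.677 CPM in A + T. All T libraries, with 6 to 13 counts each, lay below all S libraries. Its log2 ratio for T over S was −1.78 (SE 0.39, adjusted P = 0.0102), and it passed with each library left out.

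Kcnk6, a two-pore-domain channel, was at 7.35, 7.96 and 8.89 CPM in S, at 4.77, 6.002 and 5.70 CPM in T, and at 6.86, 6.31 and 6.84 CPM in A + T. The 3 groups did not overlap, with A + T between S and T. Its log2 ratio for T over S was −0.55 (SE 0.14, adjusted P = 0.0209), and it did not pass without S 3, S 5 or T 11 (adjusted P at most 0.0784). Kcnt2, a sodium-activated channel, had means of 7.01 ± 1.94, 3.87 ± 0.927 and 4.16 ± 0.409 CPM in S, T and A + T, and its log2 ratio for T over S was −0.85 (SE 0.24, adjusted P = 0.0275). All T libraries were below all S libraries, and the gene did not pass without S 2, S 3, T 11 or T 15 (adjusted P at most 0.113).

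Kcna1 and Kcnc2, voltage-gated channels best known from neurons, were both lower in T than in S. Kcna1 had means of 7.30 ± 0.922, 4.69 ± 0.829 and 5.61 ± 0.705 CPM in S, T and A + T, and its log2 ratio for T over S was −0.63 (SE 0.18, adjusted P = 0.0313). For Kcnc2 the means were 2.29 ± 0.312, 1.10 ± 0.282 and 1.31 ± 0.403 CPM and the log2 ratio −1.06 (SE 0.31, adjusted P = 0.0327). In both genes the T libraries lay below the S libraries without overlap. Kcna1 did not pass without S 2, S 5, T 12 or T 15 (adjusted P at most 0.115), and Kcnc2 not without S 2, S 3, S 5, T 11 or T 15 (at most 0.117). The 4 nerve and Schwann cell markers found in the table summed to between 21.3 and 26.1 CPM in S, 11.02 and 12.6 CPM in T and 14.2 and 17.7 CPM in A + T. Of the 4, 2 were lower in T than in S, against 11% of all genes. The part of these markers in the values of Kcna1 and Kcnc2 was not tested. Kcna5 lies 105 kb from Kcna1 on chromosome 6.

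Kcnq5, a voltage-gated channel of neurons and smooth muscle, was at 0.387, 0.659 and 0.434 CPM in S, at 1.42, 0.951 and 1.59 CPM in T, and at 0.804, 1.005 and 1.79 CPM in A + T. All T libraries were above all S libraries, on 6 to 13 counts in S and 16 to 23 counts in T. Its log2 ratio for T over S was 1.37 (SE 0.41, adjusted P = 0.0382), and it did not pass without S 2, S 3, S 5, T 11 or T 15 (adjusted P at most 0.121).

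Kcnj15, an inward rectifier of epithelia, was at 1.38, 1.62 and 1.52 CPM in S, at 0.310, 0.357 and 0.468 CPM in T, and at 1.05, 1.08 and 7.14 CPM in A + T. All T libraries lay below all others. For T over S the log2 ratio was −2.01 (SE 0.82), which did not pass with all libraries (adjusted P = 0.108) but did without A + T 22 (−2.002, adjusted P = 0.00145). A + T 22, the library with 1624 CPM of lung and airway markers, held 116 counts and the other two A + T libraries 17 and 15. The log2 ratio for A + T over T was 3.05 (SE 0.78, adjusted P = 0.0481), and without A + T 22 it was 1.51 (adjusted P = 0.0379), the T libraries holding 5 or 6 counts each. The gene did not pass without any 1 of the S or T libraries (adjusted P at most 0.172), nor without T 12 and A + T 22 together (log2 ratio 1.48, adjusted P = 0.0772). Of the 15 lung and airway markers, 7 were in the table, and the part of lung RNA in the value of Kcnj15 was not tested.

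The other 29 tested Kcn genes passed in no comparison. Their log2 ratios ranged from −0.61 to 1.59 for T over S, from −0.47 to 0.93 for A + T over T and from −0.59 to 1.18 for A + T over S. Among them was Kcna7, a voltage-gated channel of heart and skeletal muscle, with means of 12.6 ± 0.803, 12.4 ± 1.35 and 10.8 ± 0.655 CPM in S, T and A + T. The 6 genes that the filter removed were at most 1.48 CPM in any library.

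A list of 25 genes that traffic, anchor or regulate these channels was examined beside them, and 20 were tested. For T over S, 5 were higher and 5 lower, against 10.3% and 11% of all genes. The higher genes included Cav3, the muscle caveolin (log2 ratio 0.29), Actn2, the Z-disc actinin (0.51), Irx3, a transcription factor of the conduction system (0.47), and Lrrc52, an auxiliary subunit of large-conductance channels (1.85). The lower genes were the scaffolds Dlg4 (−1.10) and Cask (−0.31), the actin crosslinker Flna (−0.76), the ventricular transcription factor Irx4 (−0.48) and Cacng7 (−1.28), which is named as a calcium channel subunit.

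Between A + T and T, 3 of the 20 were lower, among them the anchoring gene Actn2 (−0.61) and the auxiliary gene Lrrc52 (−1.53), against 2.79% of all genes. Compared with S, A + T had higher Irx3 (0.32) and lower Abcc8 and Irx4 (−0.54), where 4.67% of all genes were higher and 3.64% lower. The median log2 ratio over the 20 genes was −0.10 for T over S, −0.09 for A + T over T and −0.12 for A + T over S.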

How the data were processed

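Whole-heart RNA came from 3 animals in each of the groups S, T and A + T, which the labels number separately. The authors required an RNA integrity number above a minimum, prepared mRNA libraries, sequenced 75-base paired ends, aligned them to mm10 with STAR and assigned uniquely mapped reads to RefSeq genes by strand with featureCounts. The deposited counts per gene are whole numbers without normalization. The authors also deposited log2 values, which equal log2 of TMM-scaled CPM per kb (median SD of the difference 0.0024 over 8489 genes). The submitters' processing notes also name edgeR and FastQC, and the tool behind the study's own fold changes is not given in the sources used here.

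The study's filter was applied, which leaves out a gene if over 4 of the 9 libraries lie below 0.5 CPM, and this took 526 of 13890 genes. All pairs of groups were then compared on all genes in 1 fit of the 9 libraries. The quasi-likelihood test of edgeR 4.0.16 was used under R 4.3.3 with TMM scaling. P-values were adjusted by Benjamini-Hochberg over 13364 genes, and a gene passed at an adjusted P-value under 0.05. The standard error is the size of the log2 fold change over the square root of F. The floor was set at 3 counts, or 0.152 to 0.242 CPM depending on the library, and this limit covers counting error only. The floor removed no gene from the tests. Kcns3, which held 3 counts in S 5, was tested and gave the highest log2 ratio of the uncalled genes for T over S (1.59). Replicates differed by more than sampling noise.

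The genes named are 29 genes of the cardiac currents, of which 25 were tested, every other Kcn gene that passed in a comparison, and the 3 other Kcn genes with the highest per-kb levels (Kcng2, Kcna7 and Kcnk6). Some genes of the lists are not reported here. The study's listed log2 ratios were used only to check the labels. The members and lists were chosen with earlier results of these data known. Alternatives were DESeq2 1.42.0, limma-voom and limma 3.58.1 on the deposited log2 values, upper-quartile factors, library totals alone, all genes unfiltered, a minimum of 10 counts per library, a fit of 2 groups at a time, no Rn45s, the study's thresholds (unadjusted P-value under 0.05 and at least 1.5-fold), T 12 and A + T 22 left out, and each library left out in turn. On simulated counts for T against S in which 200 of 13364 genes were changed, the test found 146 and called 14 others. Loci come from GENCODE M21 and promoter windows from RefSeq, both on GRCm38. Python 3.11.15 and matplotlib 3.10.9 were used for the rest.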

Additional observations from a re-analysis of the deposited data

How the results depend on the processing

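Over the 34 named genes and 3 comparisons, no log2 ratio of a called gene changed direction under any alternative, and 86 of the alternative values fell short of the threshold while 23 newly passed it. Counts of Kcn genes that passed moved as follows. Scaling by library totals alone gave 0 higher and 7 lower for T over S, 0 lower for A + T over T and 1 lower for A + T over S, and Kcnip2, Kcnq1, Kcnj5, Kcna1, Kcnk6, Kcnq5, Kcna5 and Kcnj12 were among the genes whose calls were lost with it. Over all genes this scaling gave 585 higher and 1052 lower for T over S, against 1371 and 1466 with TMM. It gave 124 lower for A + T over T (373 with TMM) and 231 lower for A + T over S (486 with TMM). A fit of only the 2 groups compared gave 4 higher for T over S and 0 lower for A + T over T, against 1691 and 113 of all genes. Kcne1 no longer passed there for A + T over S. At least 10 counts in every library left 38 Kcn genes and gave 1 higher for T over S, against 1319 of 12254 genes. For A + T over T, upper-quartile factors gave 1 lower, the deposited log2 values 0, and leaving out T 12 and A + T 22 together 1. Over all genes 262, 199 and 438 were lower, in the same order. Without these 2 libraries, the calls of Kcna5, Kcnj15 and Kcna1 and both calls of Kcnj12 were lost, although the log2 ratio of Kcna1 was −0.58 (−0.63 with all libraries) and those of Kcnj12 −0.42 and −0.35 (−0.44 and −0.39), and Kcnj3 passed for T over S (log2 ratio −0.83, adjusted P = 0.00385). Kcnip2, Kcnab2 and Kcne1 also passed for A + T over T without these 2 libraries, and Kcng2 and Kcnj15 did so for T over S. DESeq2 gave 6 lower for A + T over S, against 696 of all genes. The study's thresholds gave 5 higher and 1 lower for A + T over T and 2 higher and 6 lower for A + T over S. The cause of these shifts was not tested.

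Leaving out 1 library at a time gave 0 to 4 higher and 7 to 13 lower Kcn genes for T over S, 1 to 4 higher and 0 to 2 lower for A + T over T, and 0 to 1 higher and 0 to 4 lower for A + T over S. Calls over all genes moved as well. For T over S, 872 to 1924 were higher and 884 to 1862 lower. For A + T over T, 54 to 512 were higher and 76 to 494 lower. For A + T over S, 164 to 634 were higher and 95 to 470 lower. Kcnq5, Kcnj14 and Kcnj15 rest on few counts, and the standard errors of their log2 ratios for T over S were 0.41, 0.39 and 0.82. The power for single genes was not tested. No paired analysis was possible because the groups share no animal numbers.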
